A study of Mus musculus with 2 samples.

Results

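The cadherin superfamily was examined in a comparison of open chromatin between cardiac fibroblasts with and without knockdown of the mechanosensitive ion channel Piezo2. Genes were taken by symbol, that is Cdh followed by a number, any symbol that starts with Pcdh, Fat1 to Fat4, Dchs1, Dchs2 and Celsr1 to Celsr3. Of the 16934 genes to which the deposited table assigned a peak of accessible chromatin, 35 met this rule. They held 123 of the 63316 peaks in the table.

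Both libraries came from primary murine cardiac fibroblasts, cultured from heart and treated with TGF-β, the cytokine that turns fibroblasts into contractile myofibroblasts, at 5 ng/ml for 24 h. The cells had been transfected with scrambled siRNA (SCR, labelled NC) or with an siRNA directed at Piezo2 (siPiezo2). Each condition was represented by 1 library. No difference has a replicate check for that reason, and no test of the conditions was made. The labels give neither strain nor age, and the series' design text speaks of Cre and a Tet3 knockout where the samples name this siRNA. Accessibility was measured by ATAC-seq, in which the transposase Tn5 cuts open DNA and leaves sequencing adapters there.

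Cadherins are calcium-dependent adhesion proteins that bind like proteins on the neighbouring cell and hold cells together at adherens junctions. Classical cadherins are tied to the actin cytoskeleton through catenins and carry tension between cells, and fibroblasts are known to switch among cadherins as they become myofibroblasts. Protocadherins are a larger branch known best from neurons, whereas Fat, Dachsous and Celsr proteins are very large members that align cells within a tissue.

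The unit throughout is the authors' normalized read density, the reads in a window of 2000 bp around the peak expressed per kb after a scaling between the libraries. The log2 ratio is log2((siPiezo2 + 1)/(SCR + 1)), for a gene from the densities summed over its peaks. A negative value means a lower density in siPiezo2. Values are called lower below a ratio of 0.66 and higher above a ratio of 1.5. The reads behind each density could be recovered as whole numbers, and each log2 ratio is given with a 95% exact binomial (Clopper-Pearson) interval from them, which covers counting error only. A member peak rested on a median of 58 reads in SCR (22 to 154) and 34 reads in siPiezo2 (11 to 118). Peaks called in both libraries and of like depth varied with 1.91 times the variance of counting error, and intervals widened for this by a factor of 1.38 are called widened.

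Of 101 protein-coding genes that RefSeq lists under the rule, 35 had a peak and 66 had none. Among the classical cadherins of type I, which include the E-, N- and P-cadherins, 4 of 5 had a peak, the exception being the muscle cadherin Cdh15. Type II cadherins had a peak for 7 of 13, with none at Cdh6, Cdh7, Cdh8, Cdh9, Cdh12 and Cdh20. Of the other cadherins, 4 of 5 had a peak and Cdh17 had none. All 3 Celsr genes and 5 of 6 Fat and Dachsous genes had one, with none at Dchs1. Of the delta protocadherins, the subfamily encoded by single genes outside the clusters, 8 of 10 had a peak, with none at Pcdh8 and Pcdh10. The clustered protocadherins, whose many related first exons lie in tandem, had a peak at only 3 of 57. A gene without a peak is one for which neither library gave a call that the table assigned to it.

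The 123 peaks lay mostly inside the genes rather than at their starts. Introns held 101 of them (82.1%), against 60.6% of all peaks assigned to a gene. Promoters within 1 kb of a start site held 13, 5′ untranslated regions 4, exons 3, a promoter region between 1 and 2 kb 1, and a region just downstream 1. For 90 peaks the nearest start site was that of the gene itself, and for 33 it was that of another gene, often a noncoding one within the intron. Of the 123 peaks, 85 (69.1%) had been called in SCR only, 33 (26.8%) in both libraries and 5 (4.07%) in siPiezo2 only. Over all peaks these shares were 64.0%, 33.8% and 2.16%. The windows of all peaks held fewer reads in siPiezo2 (2754046 against 4615335, a ratio of 0.597), which moves with the number of calls, and its part in them was not tested. The depth of the whole libraries is not given in the sources used here.

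Across the 35 genes, 3 were lower (Cdh26, Pcdhgc5 and Cdh19) and 2 higher (Cdh5 and Pcdh20). Under each of the 3 other scalings Cdh26 was still lower and Cdh5 and Pcdh20 higher, while Pcdhgc5 and Cdh19 were no longer past the threshold. Over all genes with a peak, 6.21% were lower and 1.54% higher, and with so few genes past a threshold nothing particular to the family was read from the counts. The 5 genes past a threshold each rested on a single peak, and 0 of the 10 members with 5 or more peaks passed. Of all genes with 1 peak 8.31% were lower and 2.6% higher, and of all genes with 5 or more peaks 1.58% and 0.0927%. Just outside the lower threshold were Cdh10 at a ratio of 0.671, Dchs2 at 0.672, Cdh18 at 0.684, Fat4 at 0.689 and Pcdh18 at 0.70. The median log2 ratio of the members was -0.15 (quartiles -0.39 and 0.02), against -0.09 for all genes, and 25 of 35 were below 0 (62.6% of all genes), but with reads scaled to the same total the median was 0.04 against 0.03 for all genes, and 16 of 35 were below 0 (46.0% of all genes).

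**Figure D1:**
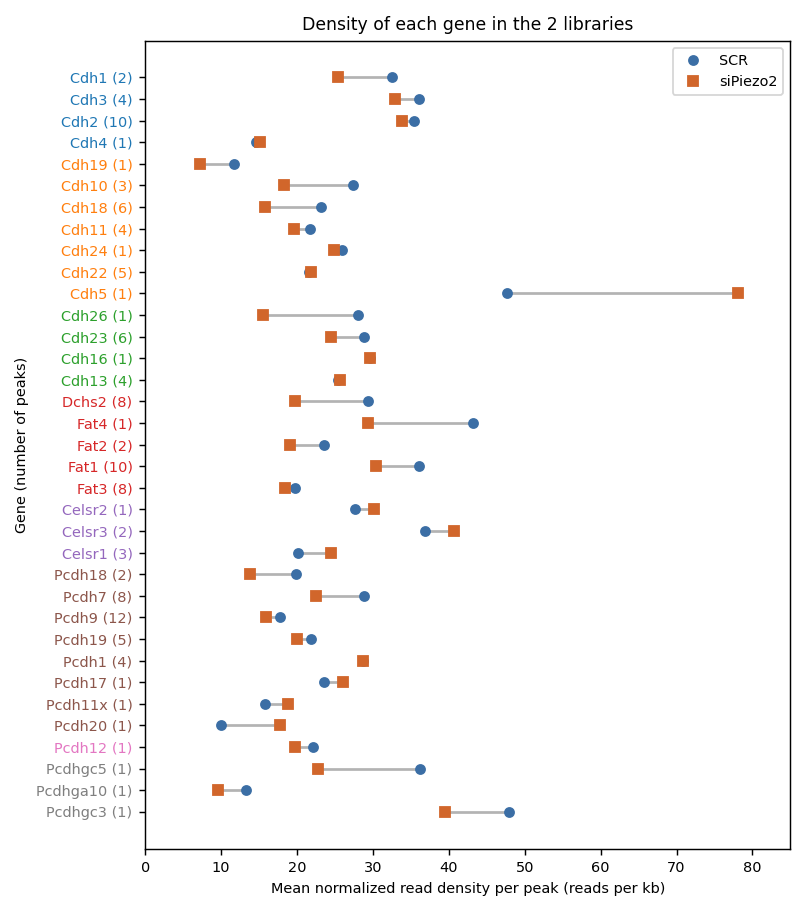
Mean normalized read density per peak (reads per kb, linear axis) of each gene in SCR (circles) and siPiezo2 (squares), with the number of peaks in parentheses and gene names coloured by subfamily; each point is 1 library, so there are no error bars. Cdh5 has the longest line, from 47.7 to 78.0, while Dchs2, Cdh10, Cdh18 and Cdh26 have their squares to the left of their circles.

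By counting error alone, the interval lay wholly below 0 for 8 genes (Cdh26, Pcdhgc5, Cdh10, Dchs2, Cdh18, Fat4, Pcdh7 and Fat1) and wholly above 0 for 1 gene (Cdh5). The same was true of 15.2% and 4.37% of all genes. Set against the median of all genes in place of 0, 5 members had an interval wholly below it and 3 wholly above it. With the widened interval 5 genes stayed below 0 (Cdh10, Dchs2, Cdh18, Pcdh7 and Fat1) and 1 above it (Cdh5), against 7.36% and 1.6% of all genes. With separate windows only, that is without peaks whose windows overlap an earlier one, 8 genes were again below 0 by counting error, but with the widened interval only Dchs2 and Cdh18 stayed below it and Cdh5 above. Those of Cdh10, Pcdh7 and Fat1 then ran up to 0.03, 0.01 and 0.05. By single peak, 21 of 123 had an interval below 0 and 2 above it, against 11.4% and 3.63% of all peaks, and 3 and 1 had with the widened interval, against 4.12% and 1.21%. These 4 were peaks in intron 2 of Cdh2, an intron of Dchs2 (chr3:83116728-83117314), intron 2 of Fat1 (chr8:45433183-45433507) and intron 2 of Cdh5, and for every other peak of the family the widened interval includes 0. Rescaling by the median of ratios over all peaks, which changes every density ratio by 1 factor, moved the median of all genes from -0.09 to 0.04, and under the 4 scalings tried 15 members were below 0 in every one and 10 above 0 in every one.

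**Figure D2:**
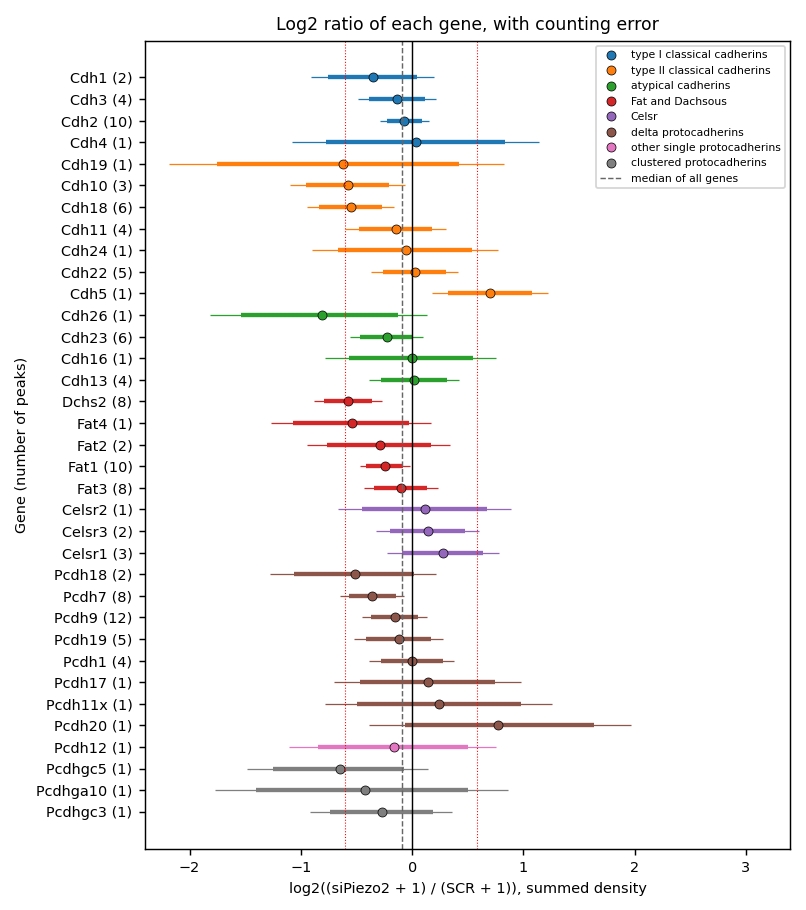
Log2 ratio of the summed density of each gene (x axis, siPiezo2 over SCR) with its 95% counting interval (thick line) and the interval widened by 1.38 (thin line), grouped by subfamily. The dashed line marks the median of all genes at -0.09 and the dotted lines the ratios 0.66 and 1.5; Celsr genes sit to the right of 0 and Dchs2, Cdh10 and Cdh18 to the left, while genes near the dashed line change sign under another scaling.

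Among the type I classical cadherins, the 4 genes with peaks had log2 ratios from -0.35 to 0.04, with none past a threshold. Cdh2, which encodes N-cadherin, the main cadherin of fibroblasts and cardiomyocytes, had 10 peaks that added up to a density of 354 in SCR and 338 in siPiezo2 (log2 ratio -0.07, interval -0.23 to 0.09). Its peaks did not move together. The 3 peaks at its start site were slightly denser in siPiezo2, from 42.4 to 45.9, from 47.7 to 53.6 and from 41.5 to 48.5, whereas 1 peak in intron 2 had a density of 50.3 in SCR and 25.03 in siPiezo2 (chr18:16846439-16846991, log2 ratio -0.98, interval -1.54 to -0.45). The reads of that peak fell from 125 to 39, and the noncoding gene Gm15485 has the nearest start site. The windows of the 3 start-site peaks overlap, and with separate windows only the log2 ratio of Cdh2 was -0.15.

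The epithelial cadherins of this class were also represented. Cdh1, which encodes E-cadherin, went from a density of 65.1 in SCR to 50.9 in siPiezo2 over 2 peaks (log2 ratio -0.35, interval -0.75 to 0.05). The intron 2 peak went from 38.5 to 24.1 (log2 ratio -0.65), while the other, in intron 5, at 26.6 and 26.9, lay nearest to the start of the neighbouring gene Tango6. Cdh3, which encodes P-cadherin, had 4 peaks in intron 2 with a sum of 144 and 132 (log2 ratio -0.13, interval -0.39 to 0.12). Of these, 3 were less dense in siPiezo2 and 1 was denser, from 49.6 to 61.8. Cdh4 had 1 peak at 14.7 and 15.1.

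Type II cadherins held both directions. Cdh5, which encodes VE-cadherin, the cadherin of endothelial junctions, had 1 peak in intron 2, 20.3 kb inside the gene (chr8:104848391-104848796). In SCR its density was 47.7 and in siPiezo2 it was 78.0 (log2 ratio 0.70, interval 0.32 to 1.08), from 124 and 118 reads. The peak had been called in SCR only, although its density was higher in siPiezo2. Cdh11, the OB-cadherin known from mesenchymal cells and myofibroblasts, had 4 peaks with a sum of 86.8 in SCR and 78.3 in siPiezo2 (log2 ratio -0.15, interval -0.48 to 0.18). Within it lay both the lowest and the highest single peak of the family among those with at least 40 reads. The lowest, in intron 1 (chr8:103447664-103448000), had a density of 20.1 in SCR and 8.01 in siPiezo2, with a log2 ratio of -1.23 (interval -2.24 to -0.31, or up to 0.04 when widened). The highest, in intron 2 (chr8:103426941-103427218), had 10.4 in SCR and 20.3 in siPiezo2, with a log2 ratio of 0.90 (interval 0.10 to 1.73, or from -0.21 when widened). Its 5′ untranslated region held a peak at 37.0 and 28.6.

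Cdh10 and Cdh18, both known mainly from neurons, were less dense in siPiezo2 at every peak (3 of 3 and 6 of 6), which another scaling changed to 5 of 6 for Cdh18. Cdh10 was singled out after its values were seen. Its density over 3 peaks was 82.3 in SCR and 54.9 in siPiezo2 (log2 ratio -0.57, interval -0.95 to -0.20), which went from 35.9 to 22.1, from 31.5 to 22.6 and from 14.9 to 10.3. The windows of its first 2 peaks overlap, and with separate windows the ratio was 0.644, past the threshold. Cdh18 had 139 in SCR and 94.7 in siPiezo2 over 6 peaks (log2 ratio -0.55, interval -0.83 to -0.27). Its largest difference was in intron 1 (chr15:23067539-23067882), where the density was 21.2 in SCR and 9.23 in siPiezo2, with a log2 ratio of -1.12 (interval -2.06 to -0.26, or up to 0.07 when widened). Its densest peak went from 46.2 to 28.9. Cdh19, a marker of Schwann cells, had a single peak of 11.7 in SCR and 7.23 in siPiezo2, only 25 and 12 reads, and its interval ran from -1.75 to 0.42. Cdh22 had 5 peaks with a sum of 108 and 109, and Cdh24 had 1 peak at 25.9 and 24.9.

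Of the cadherins outside the classical types, Cdh26, known from epithelial cells, had the lowest log2 ratio of all 35 genes. Its single peak, in intron 3 (chr2:178096628-178097379), had a density of 28.0 in SCR and 15.5 in siPiezo2, with a log2 ratio of -0.81 (interval -1.54 to -0.13). It rested on 66 and 25 reads, and the widened interval ran up to 0.13. Cdh23, the cadherin of the tip links of hair cells, had 173 in SCR and 147 in siPiezo2 over 6 peaks (log2 ratio -0.23, interval -0.47 to 0.00). A peak in intron 26 went from 26.4 to 15.5, while a peak at exon 1 of a shorter transcript went from 31.3 to 35.5. Cdh13, the membrane-anchored T-cadherin known from vessels and heart, had 102 and 103 over 4 peaks (log2 ratio 0.02, interval -0.28 to 0.31). Cdh16 had 29.6 in both libraries at its single peak.

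The Fat and Dachsous genes encode the largest cadherins, and Fat4 with the Dachsous proteins forms a receptor and ligand pair between cells. The 5 genes with peaks all had log2 ratios below 0, from -0.57 to -0.10, with a median of -0.29, though Fat3 was above 0 after rescaling by the median of ratios or by equal reads. Over their 29 peaks, 8 were lower and 0 higher as deposited, against 13.5% and 3.21% of all peaks in the table. All but the promoter peak of Dchs2 lay in introns, where 14.8% and 3.1% of all peaks were lower and higher. Dchs2 held 5 of the 8. Over the whole family, lower peaks numbered 13, 14 and 11 in place of 24 under the 3 other scalings. Dchs2, a Dachsous cadherin, went from 235 in SCR to 158 in siPiezo2 (log2 ratio -0.57, interval -0.79 to -0.36), from 566 and 251 reads. All 8 of its peaks were less dense in siPiezo2 (7 of 8 with reads scaled to the same total), 5 of them lower past the threshold as deposited. They included the promoter peak, from 26.7 to 16.7, and an adjoining pair in an intron (chr3:83116728-83117314 and chr3:83117612-83117924), from 50.04 to 29.0 and from 46.7 to 28.2, whose windows overlap. For 7 of the 8 peaks the nearest start site was that of Gm10710 or Gm38096. With separate windows the log2 ratio was -0.54. Over the 1 peak called in both libraries it was -0.17, from 38.3 to 33.8.

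Fat1, known as a tumour suppressor, had 360 in SCR and 304 in siPiezo2 over 10 peaks (log2 ratio -0.25, interval -0.41 to -0.08). The difference was uneven along the gene. The peak near its start was level, at 59.2 and 60.9, and the intron 2 peaks were less dense, the lowest going from 33.3 to 15.03 (chr8:45433183-45433507, log2 ratio -1.10, interval -1.82 to -0.42). Another in the same intron went from 42.2 to 26.8, and the last 3 peaks, in introns 3 and 9, were level or denser, at 32.5 and 34.2, 28.3 and 32.7, and 26.9 and 28.8. With separate windows the log2 ratio of Fat1 was -0.18 (interval -0.35 to -0.01, or up to 0.05 when widened). Fat4 had a single intron peak of 43.1 in SCR and 29.4 in siPiezo2 (log2 ratio -0.54, interval -1.07 to -0.03, or up to 0.17 when widened). Fat2 had 47.1 and 38.3 over 2 peaks, and Fat3 158 and 147 over 8 peaks, 4 of which were less dense and 4 denser.

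**Figure D3:**
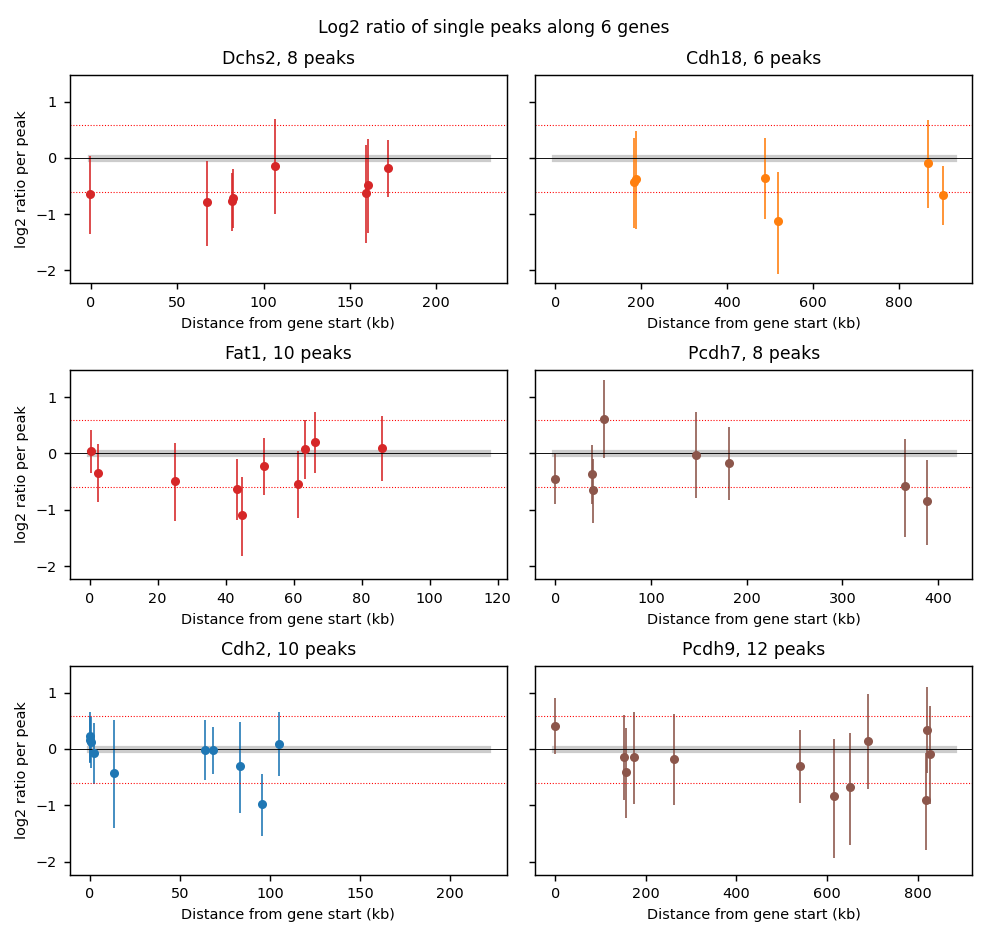
Log2 ratio of every peak (y axis) against its distance from the start of the gene (x axis, kb) in the 6 genes Dchs2, Cdh18, Fat1, Pcdh7, Cdh2 and Pcdh9; vertical lines are 95% counting intervals, the grey bar is the gene and the dotted lines mark ratios of 0.66 and 1.5. All 8 peaks of Dchs2 and all 6 of Cdh18 are below 0, whereas Fat1, Pcdh7, Cdh2 and Pcdh9 have peaks on both sides; peaks near 0 change sign under another scaling.

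The 3 Celsr genes, receptors of planar cell polarity, were the one group with every log2 ratio above 0, which held under all 4 scalings. Celsr1 had 60.4 in SCR and 73.3 in siPiezo2 (log2 ratio 0.28, interval -0.09 to 0.64). Its intron 9 peak went from 22.1 to 31.7. Celsr2 had 27.7 and 30.1 (log2 ratio 0.12), and Celsr3 had 73.8 and 81.5 (log2 ratio 0.14). As deposited, every one of the 3 intervals includes 0, and no peak of the group was past a threshold. The interval of Celsr1, from -0.0868, lies wholly above the median of all genes (-0.0933), while those of Celsr2 and Celsr3 include it. Under the 3 other scalings the log2 ratio of Celsr1 was 0.41, 0.36 and 0.49. Whether the group differs between the conditions was not tested.

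The delta protocadherins were spread around 0, with a median of -0.06 and 5 of 8 genes below 0, or 2 of 8 with reads scaled to the same total. Pcdh7 had 231 in SCR and 180 in siPiezo2 over 8 peaks (log2 ratio -0.36, interval -0.57 to -0.15), and 7 of the 8 were less dense in siPiezo2 (5 of 8 with reads scaled to the same total). Its start-site peak went from 55.7 to 40.4 and its lowest, in intron 2, from 25.4 to 13.6. The exception, in intron 1 (chr5:57926058-57926312), had 15.2 in SCR and 23.7 in siPiezo2 and had been called in siPiezo2 only. Pcdh20 was the highest of all 35 genes, with a log2 ratio of 0.77, but its single peak, in exon 3 (chr14:88704773-88705046), had 10.0 and 17.8 from 22 and 30 reads, and the interval ran from -0.07 to 1.64. Pcdh17 and Pcdh11x, with 1 start-site peak each, had 23.5 and 26.1, and 15.7 and 18.8. Pcdh1 had 115 in both libraries over 4 peaks. Pcdh19 had 109 and 100 over 5 peaks.

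Pcdh18 and Pcdh9 had start-site peaks with log2 ratios of opposite sign, and both widened intervals include 0. Pcdh18 had 39.8 in SCR and 27.5 in siPiezo2 over 2 promoter peaks (log2 ratio -0.51, interval -1.06 to 0.02). The peak at the start itself (chr3:49711667-49711964) went from 21.1 to 11.0, with a log2 ratio of -0.87 (interval -1.74 to -0.07, or up to 0.24 when widened), and the other from 18.7 to 16.5. The windows of both overlap, and with separate windows, which keep only the second of these peaks, the log2 ratio of Pcdh18 was -0.17 (interval -0.92 to 0.56). Pcdh9 had the most peaks of the family, 12, with a sum of 213 and 191 (log2 ratio -0.16, interval -0.37 to 0.05). Its start-site peak (chr14:94128030-94128466) went the other way, from 31.5 to 42.0 (log2 ratio 0.40, interval -0.09 to 0.90), while an intron 4 peak went from 20.3 to 10.4. A peak of Cdh18 (chr15:23036420-23036667), which went from 21.5 to 16.6, lay at the start of a shorter transcript, 487 kb inside the gene, and no peak of the gene lay at the start of the whole gene.

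The start-site windows of these 3 genes, for Cdh18 that of the shorter transcript, whose peaks had log2 ratios of -0.87, 0.40 and -0.36, are shown from 250 bases before to 50 bases after the start site, 5′ to 3′ on the gene's strand, with the letters CCAAT on either strand (ATTGG on the other) in capitals. They are RefSeq windows on assembly GRCm38.p6, in which Pcdh18 is at chr3:49757267-49757566 (minus strand), Pcdh9 at chr14:93890630-93890929 (minus strand) and Cdh18 at chr15:23036213-23036512 (plus strand). The peak positions above are on GRCm39.
Pcdh18: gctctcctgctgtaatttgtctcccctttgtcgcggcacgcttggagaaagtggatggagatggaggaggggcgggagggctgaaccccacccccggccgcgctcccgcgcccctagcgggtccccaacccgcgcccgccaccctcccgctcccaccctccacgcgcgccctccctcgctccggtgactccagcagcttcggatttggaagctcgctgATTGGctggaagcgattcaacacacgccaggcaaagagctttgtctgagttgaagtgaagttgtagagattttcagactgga
Pcdh9: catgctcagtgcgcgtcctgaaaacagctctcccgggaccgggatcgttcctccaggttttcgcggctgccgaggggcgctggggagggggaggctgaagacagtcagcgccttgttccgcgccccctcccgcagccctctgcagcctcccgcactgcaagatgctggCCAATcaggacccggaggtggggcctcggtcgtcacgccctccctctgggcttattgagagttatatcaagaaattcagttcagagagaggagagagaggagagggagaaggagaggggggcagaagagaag
Cdh18: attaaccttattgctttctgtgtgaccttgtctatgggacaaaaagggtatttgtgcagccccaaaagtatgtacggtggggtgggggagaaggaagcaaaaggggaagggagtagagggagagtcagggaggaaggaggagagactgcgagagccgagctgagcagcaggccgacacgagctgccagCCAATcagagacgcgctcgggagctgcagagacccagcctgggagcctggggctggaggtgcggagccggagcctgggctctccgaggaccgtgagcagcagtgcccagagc

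CCAAT, the box known to bind NF-Y, was chosen after these sequences were seen. It begins at position -32 in Pcdh18, -82 in Pcdh9 and -62 in Cdh18, counted with the start site at 0. Of the 6 members with both a start-site peak and a RefSeq window at the same start, 5 (these 3, Pcdh17 and Pcdh19) held it and Cdh24 did not. It occurs in 37.4% of all 32851 windows and in 7 of the 19 members with a window (36.8%), which is near the background. None of the 6 held the letters GGAATG (TEAD, in 14.7% of all windows), TGACTCA (AP-1, in 5.20%), CAGGTG (an E-box, in 20.2%) or the CArG box of SRF (in 1.63%), searched on both strands. Of the 19 members with a window, 3 (15.8%) held the TEAD letters and 3 (15.8%) the E-box, both near the background. The AP-1 letters and the CArG box were in 0 of the 19. CpG pairs numbered 23 in Pcdh18, 18 in Pcdh9 and 12 in Cdh18, against a median of 7.

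Of the clustered protocadherins only genes of the gamma cluster had a peak, each at its own start site. Pcdhgc5 had 36.2 in SCR and 22.7 in siPiezo2 (log2 ratio -0.65, interval -1.25 to -0.08, or up to 0.14 when widened). Pcdhga10 had 13.2 and 9.63, and Pcdhgc3 had 47.9 and 39.5. All 3 were below 0 under every scaling tried, but Pcdhgc5 was past the threshold only as deposited, with log2 ratios of -0.52, -0.56 and -0.54 under the 3 others. The first exons of the cluster are related in sequence, and whether reads were shared or dropped between them was not tested, so these values are uncertain. Pcdh12, a protocadherin known from endothelium, had 22.2 and 19.7 at 1 intron peak.

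By single peak, 85 of 123 were less dense in siPiezo2 (60 of 123 with reads scaled to the same total), 24 (19.5%) were lower past the threshold and 4 (3.25%) higher. Over all peaks 13.5% were lower and 3.21% higher. In introns 21 of 101 were lower and 3 higher, against 14.8% and 3.1% of all intron peaks. At promoters within 1 kb 3 of 13 were lower as deposited, those of Dchs2, Pcdh18 and Pcdhgc5, against 5.86%. The widened intervals of these 3 peaks include 0, running up to 0.28, 0.24 and 0.14. Under each of the 3 other scalings the peak of Pcdhgc5 was not past the threshold. Members share windows and genes, and no test of these shares was made. Among the 33 peaks called in both libraries 4 were lower and 0 higher, against 5.36% and 4.41% of all peaks called in both. With reads scaled to the same total 11 of 123 were lower and 8 higher, against 7.67% and 8.23% of all peaks.

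**Figure D4:**
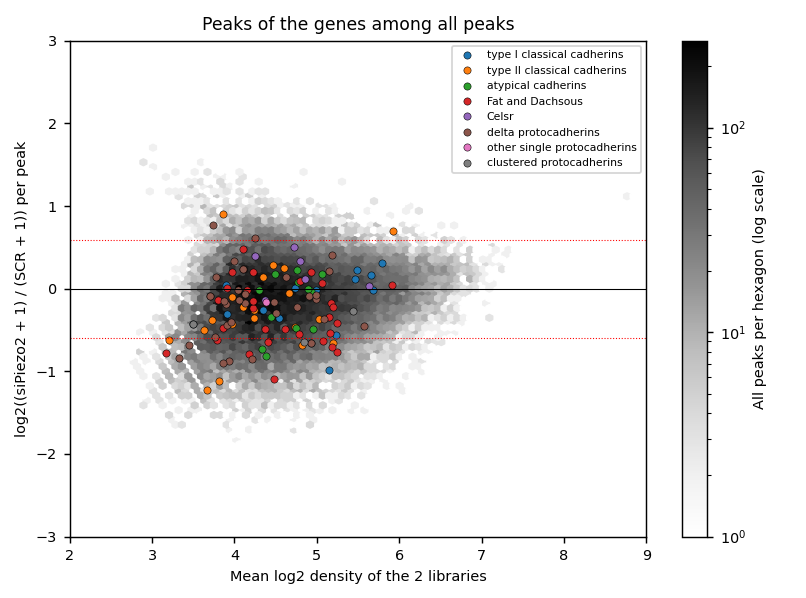
Log2 ratio (y axis) against the mean log2 density of the libraries (x axis) for all 63316 peaks (grey hexagons, log count scale) and the 123 peaks of the family (points coloured by subfamily); dotted lines mark ratios of 0.66 and 1.5. The family's points lie within the grey cloud, 24 below the lower line and 4 above the upper one; the point of Cdh5 is the densest of those above.

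Peaks between genes carry no gene in the table and were added only by their nearest start site, an alternative chosen after seeing the data. There were 50 nearest to a family gene, of which 12 (24%) were lower and 3 higher, against 16.6% and 4.02% of all distal intergenic peaks. Fewer were lower under each of the 3 other scalings. Of the 50, 27 (54%) were below 0, against 66.3% of all distal intergenic peaks. Their median log2 ratio was -0.03, against -0.18. Pcdh18 and Fat3 were singled out here after their values were seen. The 3 distal peaks of Pcdh18 were all lower (2 of 3 under each of the 3 other scalings), from 49.4 to 32.2, from 17.7 to 6.78 and from 26.3 to 12.4, with a sum of 93.4 and 51.4 (log2 ratio -0.85, interval -1.23 to -0.48). With them the log2 ratio of Pcdh18 was -0.75 (interval -1.06 to -0.44). All 7 distal peaks of Fat3 were less dense in siPiezo2 (5 of 7 with reads scaled to the same total), with a sum of 121 and 79.3 (log2 ratio -0.60, interval -0.92 to -0.30), whereas its own peaks gave a log2 ratio of -0.10.

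The distal peaks of Cdh5 were divided. A group of 4 peaks about 25 kb before the start, whose windows overlap, was denser in siPiezo2, from 26.0 to 34.5, from 27.0 to 38.5, from 24.9 to 30.0 and from 20.8 to 23.4. The peaks farther upstream went from 34.6 to 17.6 (interval -1.61 to -0.31), from 84.8 to 46.7 (interval -1.26 to -0.45) and from 32.3 to 31.0. The intervals of the 4 nearer peaks include 0. Summed, the 7 had 250 in SCR and 222 in siPiezo2 (log2 ratio -0.18), and with them the log2 ratio of Cdh5 was 0.01 in place of 0.70. Both sums count reads shared by the 4 overlapping windows more than once. Cdh11 had 5 distal peaks with 85.4 and 70.4. The distal peak of Cdh19, from 6.26 to 15.1, reversed the direction of that gene, to 0.30.

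**Figure D5:**
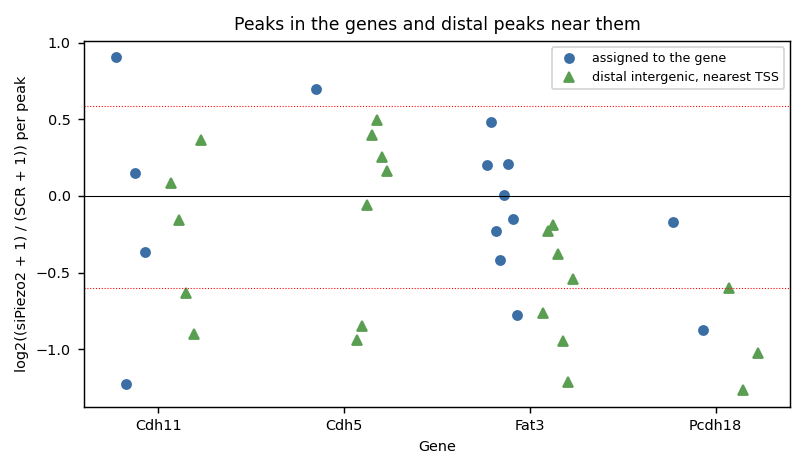
Log2 ratio of single peaks (y axis) assigned to Cdh11, Cdh5, Fat3 and Pcdh18 (circles) and of distal intergenic peaks with their start site nearest (triangles), 1 point per peak, spread sideways for legibility; dotted lines mark ratios of 0.66 and 1.5. All 7 triangles of Fat3 (5 with reads scaled to the same total) and all 3 of Pcdh18 are below 0, while those of Cdh5 and Cdh11 lie on both sides.

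The partners of cadherins were near the median of all genes. The 12 catenins and related cytoplasmic partners all had a peak and 0 were past a threshold (median -0.15). Of them 11 were below 0, against 62.6% of all genes, and 6 of 12 after rescaling by the median of ratios, against 44.0%. Jup, which encodes plakoglobin, had 230 in SCR and 183 in siPiezo2 (log2 ratio -0.33, interval -0.54 to -0.12), and Ctnnb1, which encodes β-catenin, 26.3 and 26.2. The 5 nectins, a second class of junction proteins, had a median of -0.10, and the 6 of 13 desmosomal genes with a peak -0.11. Calsyntenins and cadherin-related genes had a peak at 3 of 9, with a median of 0.04. Of the planar polarity partners 10 of 11 had a peak and 1 was lower, the Wnt receptor Fzd3, from 23.7 to 13.6 (log2 ratio -0.76, interval -1.55 to -0.03). The 9 genes of cadherin shedding and turnover had a median of 0.09. Among them Numb, an endocytic adaptor, had 111 in SCR and 159 in siPiezo2 (log2 ratio 0.51, interval 0.26 to 0.77), which did not pass the threshold. Of the 9, 4 were below 0 and 5 above it. Intervals lay wholly below 0 for Adam10 (log2 ratio -0.37, interval -0.68 to -0.07) and Adam15 (-0.26, interval -0.51 to -0.01). Jup, Ctnnb1, Numb, Adam10 and Adam15 were named after their values were seen.

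Markers of other cell types were present beside these genes. Of 8 fibroblast markers 7 had a peak (none at Thy1), with log2 ratios from -0.50 (Col1a2) to 0.21 (Dcn) and Col1a1 at -0.44 (interval -0.73 to -0.15). Of the 7, 6 were below 0 (62.6% of all genes), and 4 after rescaling by the median of ratios (44.0% of all genes). Of 9 endothelial markers 6 had one, with none at Tie1, Sox17 and Egfl7, and beside Cdh5 their log2 ratios ran from -0.37 (Erg) to 0.41 (Emcn), with Pecam1 at 0.01. The 6 together held 1281 reads in SCR and 820 in siPiezo2. Of 10 epithelial or mesothelial markers 5 had one, with none at Epcam, Krt8, Krt18, Cldn4 and Grhl2. Beside Cdh1 at -0.35 these were the mesothelial marker Wt1 at -0.61 (interval -1.08 to -0.15), Msln at -0.23, Upk3b at 0.56 and Krt19 at 0.68. Of 6 Schwann cell markers only Cdh19 had one. Macrophage markers had a peak at 4 of 6, with Spi1 at 0.45 (interval 0.08 to 0.82) and the other 3 from -0.32 to -0.24. Cardiomyocyte markers had one at 3 of 8, from -0.07 to 0.16, and pericyte or smooth muscle markers at 5 of 6. The log2 ratios of the latter were -1.16 (Rgs5, interval -1.52 to -0.82, from 291 and 90 reads), -0.50 (Notch3), -0.23 (Myh11), 0.09 (Abcc9) and 0.16 (Cspg4). Of the markers of all types, Rgs5, Wt1 and Cdh19 were past the lower threshold as deposited, and Krt19 and Cdh5 past the higher one. In bulk libraries fewer cells of a type and less open chromatin per cell cannot be told apart, and the part of other cell types in these values was not tested. Over Piezo2 itself the reads numbered 791 and 392 (log2 ratio -0.46, interval -0.64 to -0.29). The siRNA acts on the transcript, so this does not check the knockdown.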

How the data were processed

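ATAC-seq of 2 libraries, SCR and siPiezo2, was analysed from the table that the authors deposited, in which each row is a peak. Its signal columns are read densities per peak that the authors had scaled between the libraries by an MA-plot fit to shared peaks. Other columns hold the authors' own comparison (log2 ratio, mean log2 density, fold change and p-value) and were not used. According to the methods, reads were aligned with bwa, duplicates were removed with Picard and peaks were called with MACS2 in each library, and the submitters' processing notes list BWA 0.7.12 and mm10. The gene coordinates in the table are those of GRCm39, since only 430 of 21058 shared transcripts sit at the same GRCm38 position, so no sequence was read by coordinate. The methods describe minced tissue and another kit than the labels do, and the labels list total RNA as the molecule. These differences were not settled.

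Reads per 2000 bp window were recovered from the densities alone, whole to within 0.05 for 100% of the peaks. On simulated data 100% of 63316 peaks were recovered. The intervals covered the true ratio for 96.0% of unchanged simulated peaks and 97.5% of 200 simulated peaks changed 3-fold. This coverage was not a check of the intervals on the deposited data. There, peaks called in both libraries and of like depth varied with 1.91 times the variance of counting error. The variance over counting error was taken from 18627 peaks called in both libraries that held 37 to 246 reads in all. All windows held 4615335 and 2754046 reads, with a median of 58 and 36 per peak. A pseudocount of 1 was used, and no filter on low values. Genes named were those past 1.5-fold with at least 20 reads, the 10 with the highest density, fibroblast and junction cadherins (Cdh1, Cdh2, Cdh5, Cdh11, Cdh13, Fat1, Fat4, Dchs1), and the 5 lowest and 5 highest peaks with at least 40 reads. Other members are given by their densities alone or were named after their values were seen. The members, subfamilies, partner and marker lists were chosen with earlier results of these data known. Gene symbols of the family were counted in RefSeq (GRCm38.p6). Alternatives were the pseudocount (0.1), 3 other scalings, a density minimum, promoter peaks, the strongest peak, peaks called in both libraries, separate windows and a fold of 2. Calculations were made in Python 3.11.15 with pandas 2.3.3 and numpy 2.4.6, intervals with scipy 1.17.1 and plots with matplotlib 3.10.9.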

Additional observations from a re-analysis of the deposited data

How the results depend on the processing

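No paired analysis was possible because each condition had 1 library. A pseudocount of 0.1 and separate windows left all 5 summary results on the same side. Genes lower numbered 1 in place of 3 after rescaling by the median of ratios or to the same total, with peaks called in both libraries only (of 20 genes), and with recovered reads at the same total (Cdh26 under the 3 scalings), and 7 with the strongest peak of each gene. Genes higher numbered 1 in place of 2 with a summed density of at least 20 (of 30 genes) and 0 with promoter peaks only (of 11) or peaks called in both. Peaks lower numbered 13 and 14 in place of 24 under the first 2 rescalings, 11 with recovered reads, 3 of 13 at promoters and 4 of 33 called in both. Peaks higher numbered 8 in place of 4 with recovered reads and 0 at promoters or called in both. At a fold of 2, 0 genes were lower, 0 higher, 3 peaks lower and 0 higher. The median log2 ratio of the members turned from -0.15 to 0.0434 with recovered reads, and Cdh19 from -0.62 to 0.30 with its distal peak. The cause was not tested. Of the other values for single genes under an alternative, 151 kept within the counting interval and 13 left it, among them Cdh5 at 0.01 with distal peaks, Cdh2 at -0.31 and Dchs2 at -0.17 with peaks called in both, and Fat1 at 0.04 and Cdh3 at 0.31 with the strongest peak. With a median of 34 reads per member peak in siPiezo2, single peaks could not show small differences.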
